A study of Mus musculus with 24 samples.

Results

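Mammary tumors of 2 diet groups that received the high animal fat diet (HFD) in opposite windows of life were compared, the 3 tumors with the label HFD-LFD Early (MSU_51, MSU_54 and MSU_62b) against the 4 tumors with the label LFD-HFD Late (MSU_24, MSU_42, MSU_45 and MSU_59a). They were chosen by these labels alone and are 7 of the 24 tumors on the arrays. All mice were female BALB/c mice that received the carcinogen dimethylbenz[a]anthracene (DMBA) by oral gavage, and all 7 samples are total RNA of a mammary tumor. HFD-LFD mice ate HFD in peripuberty and the low-fat diet (LFD) as adults, and LFD-HFD mice ate LFD in peripuberty and HFD as adults. Early and Late are the latency class in the label. Diet window and latency therefore change together, and what each contributes cannot be told apart in this comparison. In the study's tumor table, early HFD-LFD tumors were mostly adenosquamous and all lacked estrogen and progesterone receptors. Its LFD-HFD tumors were glandular or papillary and mostly positive for both receptors. Histology and receptor status were not matched to single arrays here. The remaining arrays hold 3 HFD-LFD Late tumors, 3 HFD Early and 6 HFD Late tumors of mice kept on HFD, and 5 LFD Late tumors of mice kept on LFD. Each tumor was on 1 array, labels give no pairing, and nothing in them says whether tumors with the same number and another letter (59a and 59b, 62a and 62b) grew in the same mouse. P-values measure the spread between tumors.

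The mammary epithelium has an inner luminal layer, whose hormone-sensing and milk-secreting cells depend on estrogen, prolactin and the transcription factors GATA3 and ELF5, and an outer basal layer of contractile myoepithelial cells. Carcinogen-induced mouse mammary tumors can be glandular or can turn to squamous, keratinizing growth, and Wnt signaling, in which secreted ligands bind Frizzled receptors and stabilize β-catenin, is a known driver of the latter in the mammary gland and of hair follicle formation in skin. Interferon signaling through STAT2 and IRF9 switches on a group of antiviral genes in epithelial, stromal and immune cells alike.

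Every array carried tumor RNA against the same reference, a commercial mouse reference RNA pooled from cell lines. The study's methods place the reference in cyanine 5, while the labels place the tumor in cyanine 5 and the reference in cyanine 3. The signals settled the direction: a typical probe varied more in cyanine 5, with a median SD of 0.613 (log2 signal) over 24 arrays and 0.418 over the 7 tumors, than in cyanine 3, where these SDs were 0.266 and 0.187, and a common reference should vary less than tumors. Transcripts of the Y chromosome genes Ddx3y and Eif2s3y, absent from female tissue, were brighter in cyanine 3 on every array that measured them, with log2 ratios of -5.05 to -3.79 in the 7 tumors, while probes of Uty and Kdm5d, also on the Y chromosome, were at -0.43 to 0.13. All values are cyanine 5 over cyanine 3, tumor over reference, on the log2 scale. Dyes were never swapped, so a dye bias of a probe is in its ratio and cancels only in differences between tumors. Spots in rows 381 to 532 of MSU_24 and rows 1 to 110 of MSU_42 and MSU_59a had dim cyanine 5 and were left out, which left 70.4% to 79.8% of the tested genes measured in these tumors and 97.4% to 98% in the other 4. Probes well above background made up 65.7% to 79.7% of each of the 7 arrays. The 3 early tumors and MSU_45 were on slide 4, MSU_24 on slide 6, and MSU_42 and MSU_59a on slide 7. Across genes, the log2 ratios of early tumors correlated with each other at 0.94 to 0.96, those of LFD-HFD Late tumors at 0.92 to 0.95, and those of tumors of different groups at 0.71 to 0.81. MSU_45 was at 0.918 to 0.937 with the other LFD-HFD Late tumors and at 0.711 to 0.764 with the early tumors on its slide. With late tumors of other diets it ranged from 0.592 (MSU_86) to 0.908 (MSU_67). ELF5, a transcription factor of the mammary secretory lineage, was above the reference in the tumors that measured it, with Elf5 log2 ratios of 1.52, 2.16 and 2.53 in the early tumors and 3.25 to 4.22 in 3 LFD-HFD Late tumors.

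Of 19613 genes tested, 1247 (6.36%) differed between HFD-LFD Early and LFD-HFD Late tumors at an adjusted p (limma, Benjamini-Hochberg) under 0.05. Higher in the early tumors were 530 genes (2.7%) and lower were 717 genes (3.66%). The difference passed 1 log2 unit in 845 of the 1247 genes and 2 log2 units in 276. The groups did not overlap in 43.3% of all tested genes and in 1244 of the called ones. The median difference over all tested genes was -0.05, and 44.3% of them were positive. When each array was centred on its median in place of loess, that median moved to 0.08 and 61.8% of 650 calls were higher in the early tumors, against 42.5% with loess. With the tumor channel alone the median was 0.05 and 63.3% of 757 calls were higher. The balance of rises and falls therefore depends on the scaling. The count was 144 without MSU_51, 274 without MSU_54 and 374 without MSU_62b, and 624 without MSU_45, 642 without MSU_42, 573 without MSU_59a and 819 without MSU_24.

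Side by side with this comparison stand the ones that change diet window or latency but not both. They share tumors with it and are given as values only. Within HFD-LFD mice, 149 genes (0.76%) differed between Early and Late tumors. That count was 18 without MSU_54, 20 without MSU_51, 33 without MSU_58, 42 without MSU_62b, 91 without MSU_26, 53 with dimmed rows kept and 27 with slide as a random block. The Early tumors were all on slide 4, while MSU_26 and MSU_58 were on slide 5 and MSU_59b on slide 7. Latency and slide cannot be told apart there. Between HFD-LFD Late and LFD-HFD Late tumors, where the window of HFD differs and latency does not, limma called 0 genes, with a smallest adjusted p of 0.123 and 1377 genes at an unadjusted p under 0.05. The scanner software's own ratios also gave 0 calls there and imputed values gave 1. Leaving out MSU_26 gave 3. A count of 0 does not show equal levels. Medians over gene lists described below follow, of HFD-LFD Late minus LFD-HFD Late, then of Early minus Late within HFD-LFD mice. Cornified envelope genes were at 1.63 and 0.55, hair genes at 2.05 and 0.65, and adipocyte genes at -1.15 and -0.115. Interferon-stimulated genes were at -0.17 and -1.46, and milk genes at -0.28 and -1.68. Mitosis was at 0.476 and 0.45, DNA replication at 0.335 and 0.46, and luminal genes at -0.46 and -0.82.

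The 10 largest rises and 10 largest falls were taken among called genes without overlap and with at least 3 measured LFD-HFD Late arrays. Several of these rises were in genes known from keratinized epithelium or hair. S100a9, which encodes a calcium-binding protein of neutrophils and of inflamed or squamous keratinocytes, measured 1.62 in MSU_51 and 1.39 in MSU_62b, and -4.43, -4.93, -5.66 and -4.85 in MSU_24, MSU_42, MSU_45 and MSU_59a. No value of one group came near the other, and the log2 difference was 6.47 ± 1.88 (SE, 2 against 4 tumors, adjusted p = 0.0469), since MSU_54 had no usable spot. The groups lay as far apart for Lce3a, a late cornified envelope gene of the epidermal differentiation complex, which was at 1.48, -0.66 and 1.02 in MSU_51, MSU_54 and MSU_62b and at -6.16 to -5.59 in the LFD-HFD Late tumors. Its log2 difference was 6.39 ± 1.78 (adjusted p = 0.0392). Serpinb11, a serpin of differentiating keratinocytes, was at 3.59, 3.42 and 3.50 in the early tumors and at -2.10, -1.85 and -1.80 in MSU_42, MSU_45 and MSU_59a, without MSU_24. The early tumors were alike for this gene but not for the hair genes Krtap6-1, Krtap22-2 and Prr9, in which MSU_62b stood below MSU_51 and MSU_54. For Krtap6-1, a keratin-associated protein of the hair shaft, MSU_51 and MSU_54 measured 2.60 and 4.21, MSU_62b measured -0.93, and the LFD-HFD Late tumors measured -4.19 to -3.55. Krt90, a keratin gene, rose by 5.30 ± 1.41 log2 units, but 1 LFD-HFD Late array alone was well above background, so that level is near background and the size of the difference is not resolved. Sema3b, which encodes a secreted semaphorin, rose by 5.98 ± 1.67 with MSU_54 not measured.

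Tnfrsf19, a TNF receptor family gene known as a Wnt target, and Neto1, which encodes a membrane partner of glutamate receptors in neurons, completed the largest rises. Tnfrsf19 measured 3.49 in MSU_51 and 3.03 in MSU_62b and -1.82 to -1.45 in the LFD-HFD Late tumors. Neto1 measured 2.53, 0.999 and 1.04 in MSU_51, MSU_54 and MSU_62b and -3.56, -3.30, -3.12 and -3.62 in MSU_24, MSU_42, MSU_45 and MSU_59a. The Neto1 difference, 4.92 ± 0.40, had the smallest p of all tested genes (adjusted p = 2.52e-06). It also differed within HFD-LFD mice between Early and Late, by 4.67 (adjusted p = 1.98e-05), but its difference between HFD Early and LFD Late tumors was 0.44 (adjusted p = 0.563). These values are from the brightest probe of each gene. A dimmer probe gave a difference of 0.85 for Neto1 and 1.66 for Tnfrsf19, so the size depends on the probe.

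The 10 largest falls included Cck, Prlr and Myh11, which belong to the milk, luminal and basal lists, and 7 genes outside the lists. Cck, which encodes the peptide hormone cholecystokinin, was at -4.13, -3.58 and -4.03 in MSU_51, MSU_54 and MSU_62b, and at 1.19, 2.68, 1.74 and 1.21 in MSU_24, MSU_42, MSU_45 and MSU_59a. It was lower by 5.62 ± 1.57 log2 units (adjusted p = 0.0383). Prlr, the prolactin receptor, was at -0.36, 0.26 and -0.48 in the early tumors and at 5.43, 4.19, 5.91 and 5.75 in the LFD-HFD Late tumors, a log2 difference of -5.51 ± 1.31 (adjusted p = 0.0218). Every LFD-HFD Late tumor lay above the reference, and the early tumors lay near it. Myh11, the smooth muscle myosin heavy chain of myoepithelial and vascular muscle cells, was at -3.11 to -2.80 in the early tumors and at 1.23 to 1.78 in 3 LFD-HFD Late tumors, without MSU_24. F3, tissue factor, which starts blood coagulation, fell by 4.20 log2 units with MSU_45 not measured. Rasgef1c, Tlcd4, Gipc2, Sec14l4, Lrrc75b and Scrg1 fell, with log2 differences of -5.55 to -4.18. Most of these calls were lost with single tumors left out. With a tumor left out, Cck, Gipc2, Sec14l4, Lce3a and Prr9 were called in 0 of 7 fits and S100a9 and Sema3b in 0 of 5, Krtap6-1, Krtap22-2, Krt90, Serpinb11, Myh11 and Scrg1 in 1 of 7, Tlcd4 and F3 in 2, Prlr in 3, Lrrc75b in 5 and Rasgef1c in 6, while Neto1 was called in all 7 and Tnfrsf19 in 5 of 5.

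**Figure D1:**
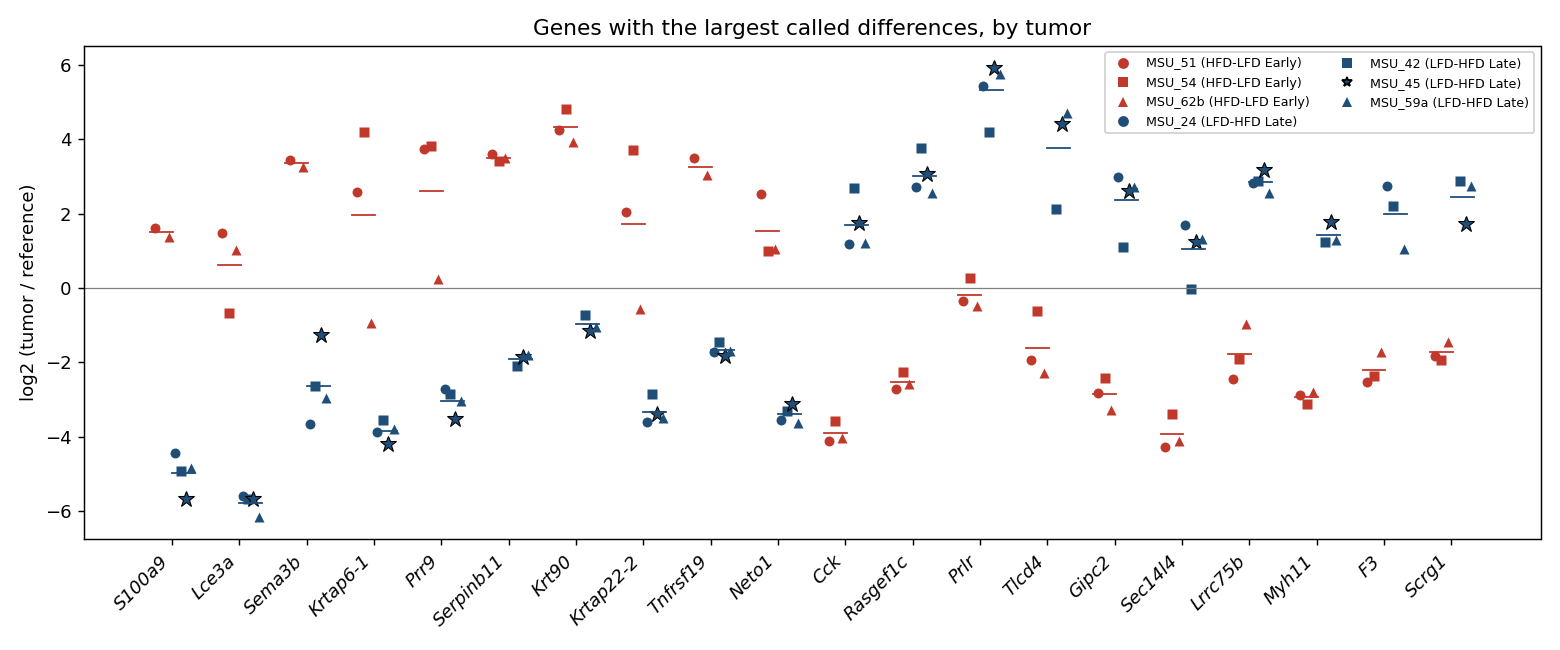
Log2 ratio of tumor over reference (vertical axis) of the 20 called genes with the widest rises or falls, 10 in each direction (horizontal axis), one point per tumor, red for HFD-LFD Early and blue for LFD-HFD Late, with MSU_45 as a star and each group's mean as a line. The ranking is among called genes with at least 3 measured LFD-HFD Late arrays. The groups do not overlap for any of the genes, which the choice of genes required, and MSU_62b lies below MSU_51 and MSU_54 for Krtap6-1, Prr9 and Krtap22-2.

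Tgfa and Ntf3, genes of growth factors, were among the calls. Tgfa, which encodes transforming growth factor α, a ligand of the EGF receptor, was at 2.32, 2.22 and 1.97 in MSU_51, MSU_54 and MSU_62b and at -0.21, -0.42, -0.32 and -0.03 in MSU_24, MSU_42, MSU_45 and MSU_59a. The spread within each group was small and the groups lay apart. The difference was 2.42 ± 0.32 (adjusted p = 0.000731), 5.34-fold, and its probe lay on chromosome 6 at 86224838 to 86224897 (mm9). Within HFD-LFD mice Tgfa also differed between latency classes, by 1.70 (adjusted p = 0.0216), and between HFD Early and LFD Late tumors, by 2.11 (adjusted p = 0.0025). Of 12 EGF family genes tested, 2 were called (16.7%, against 6.36% of all genes), and the remaining 10 did not pass. Tgfa rose and Erbb4, a neuregulin receptor of luminal cells, fell (-1.498 ± 0.43, adjusted p = 0.0412). With a tumor left out, Erbb4 was called in 0 of 7 fits. Nrg4 and Btc, ligands of this family, were at -2.27 (adjusted p = 0.0995) and -0.64 (adjusted p = 0.208). The median over the EGF family was 0.07, close to that of all genes.

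Ntf3, which encodes neurotrophin-3, a growth factor of neurons that signals through the receptor TrkC, was at 1.43, 0.79 and 1.11 in MSU_51, MSU_54 and MSU_62b and at -3.17, -2.37, -2.24 and -2.70 in MSU_24, MSU_42, MSU_45 and MSU_59a. The early tumors lay above the reference and the LFD-HFD Late tumors below it, and the difference was 3.73 ± 0.58 (adjusted p = 0.00205), 13.3-fold. The Ntf3 probe lay on chromosome 6 at 126051431 to 126051490 (mm9), and 3 of 4 LFD-HFD Late arrays had it well above background. Ntrk3, the gene of TrkC, moved the other way without passing, at -3.44 ± 1.05 (adjusted p = 0.0532), as did Ntrk2, at -2.65 (adjusted p = 0.0527), whose probes disagreed in direction. Of 10 neurotrophin genes, Ntf3 alone was called (10%, against 6.36% of all genes). Bdnf was at 0.20 and did not pass.

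A list of genes known from qRT-PCR work of the study was looked up next. Of its 8 genes, 6 were tested, 2 were called (33.3%, against 6.36% of all genes) and all 6 differences were positive. Ntf3 rose, and Bmp7, which encodes a bone morphogenetic protein, rose by 1.88 ± 0.54 (adjusted p = 0.0433). Bmp7 was at 2.16, 1.96 and 1.93 in the early tumors and at 0.17, 0.84, -0.47 and -0.01 in MSU_24, MSU_42, MSU_45 and MSU_59a, without overlap. The genes Ccnd2 (cyclin D2), Brca1 and Apaf1, of DNA repair and apoptosis, were at 1.495 (adjusted p = 0.26, MSU_42 and MSU_59a not measured), 0.56 (adjusted p = 0.0884) and 0.64 (adjusted p = 0.377). Trp53, which encodes p53, was at 0.18, -0.64 and 0.16 in the early tumors and at 0.08, -0.45 and -0.22 in MSU_42, MSU_45 and MSU_59a. The groups overlapped, and the difference of 0.10 ± 0.48 (adjusted p = 0.935) changed sign without MSU_45 (-0.03), MSU_51 (-0.04) or MSU_62b (-0.03). Ctnnb1 and Bmp10 were not tested, for low signal or too few measured tumors. The study chose this list on related tumors, so its count is not independent evidence of a direction. A short list of growth factors and chemokines comes from mammary gland work of the study. Of its 6 genes, 4 were tested, and beside Tgfa stood Tgfb1 at -0.52 (adjusted p = 0.363), Ccl1 at 0.13 (adjusted p = 0.481) and Ccl17 at -0.27 (adjusted p = 0.675). Ccl1 and Ccl17 changed sign under other scalings or slide terms.

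Genes of the Wnt pathway differed in both directions. Among ligands and receptors, 5 of 35 rose and 1 fell (17.1% called, against 6.36% of all genes), and the median was -0.01. With a tumor left out, 1 (without MSU_51) to 4 (without MSU_42) were called. Fzd1, a Frizzled receptor, was at 1.35, 0.89 and 1.27 in MSU_51, MSU_54 and MSU_62b and at -0.97, -0.99, -0.80 and -0.99 in MSU_24, MSU_42, MSU_45 and MSU_59a, a difference of 2.11 ± 0.38 (adjusted p = 0.0051). Ror2, a receptor of noncanonical Wnt ligands, was at 1.01 to 1.08 in the early tumors and at -2.23, -1.002, -1.19 and -1.02 in MSU_24, MSU_42, MSU_45 and MSU_59a (2.41 ± 0.50, adjusted p = 0.0114). Lgr6, a receptor of R-spondins that marks stem cells of the skin, rose by 3.07, Fzd10 by 2.56 and the ligand Wnt10b by 1.61, the last with MSU_24 and MSU_45 as the measured LFD-HFD Late tumors. Fzd4 fell by 1.87 log2 units and is a receptor also known from blood vessels.

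Secreted and membrane antagonists of Wnt rose with 5 of 15 members and fell with 1 (40% called, against 6.36% of all genes), and the median was -0.52. That median was 0.52 without MSU_62b and 0.06 without MSU_54, so it has no settled sign, and the number called was 1 without MSU_51 or MSU_54, 4 without MSU_24 and 3 without each of the others. Wif1, which encodes a secreted protein that binds Wnt ligands, was at 4.08, 3.52 and 3.54 in MSU_51, MSU_54 and MSU_62b and at -1.79, -1.03, -0.83 and 0.09 in MSU_24, MSU_42, MSU_45 and MSU_59a. MSU_59a was the highest LFD-HFD Late tumor and still far below the early ones. The difference was 4.60 ± 0.73 (adjusted p = 0.00328), 24.3-fold, and its probe lay on chromosome 10 at 120537079 to 120537138 (mm9). Notum, an enzyme that inactivates Wnt ligands, was at 2.02, 2.02 and 1.18 in the early tumors and at -0.66 to -0.26 in the LFD-HFD Late tumors (2.23 ± 0.55, adjusted p = 0.0235). Apcdd1, Kremen2 and Kremen1, membrane inhibitors of the pathway, rose by 2.51, 1.72 and 1.03 log2 units. Sfrp1, a secreted Frizzled-related protein, fell by 2.25 ± 0.58 (adjusted p = 0.0286).

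Transcriptional targets of Wnt rose with 6 of 21 tested members (28.6%, against 2.7% of all genes) and none fell. They had 13 positive differences and a median of 0.84. The number called was 0 without MSU_51 and within slide 4, 2 without MSU_54 or MSU_59a, 3 without MSU_62b, 4 without MSU_42 or MSU_45 and 6 without MSU_24. Tcf7 and Lef1 encode transcription factors that bind β-catenin. Tcf7 was at 1.18, 0.85 and 1.23 in the early tumors and at -1.86, -2.48 and -2.18 in MSU_42, MSU_45 and MSU_59a, without MSU_24, and differed by 3.26 ± 0.66 (adjusted p = 0.0141). A dimmer Tcf7 probe gave a difference of 1.23. Lef1 was at 0.41 and 0.47 in MSU_51 and MSU_54, at -1.09 in MSU_62b and at -2.40 to -1.94 in the LFD-HFD Late tumors (2.13 ± 0.54, adjusted p = 0.0273). Tnfrsf19 is described above, and Nkd2 and Znrf3, feedback inhibitors, and Edn1, which encodes endothelin-1, rose by 2.04, 1.38 and 1.49. Axin2 was not tested. Several of these genes (Lef1, Wif1, Apcdd1, Lgr6) are also expressed in hair follicles, whose keratins rose in the same tumors, and the part of that in the counts was not tested.

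**Figure D2:**
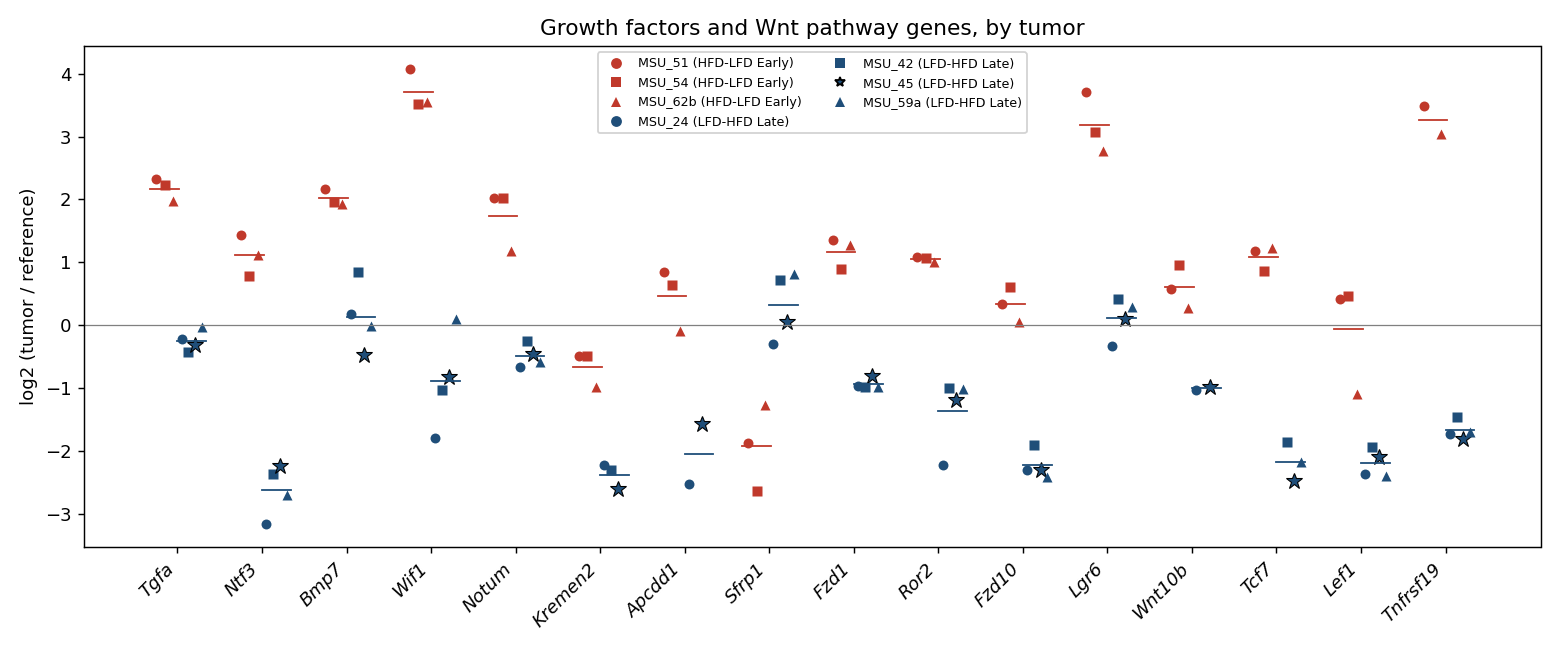
Log2 ratio of tumor over reference (vertical axis) for growth factor genes and for antagonists, receptors and targets of Wnt (horizontal axis), one point per tumor, red for HFD-LFD Early and blue for LFD-HFD Late, with MSU_45 as a star and each group's mean as a line. The measured early tumors (without MSU_54 for Tnfrsf19) lie above all measured LFD-HFD Late tumors for every gene shown except Sfrp1, where they lie below, and the differences of 4.93, 4.60 and 3.73 for Tnfrsf19, Wif1 and Ntf3 are the widest.

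Genes of the cell division cycle were higher in the early tumors. Of 60 genes of mitosis tested, 15 rose (25%, against 2.7% of all genes) and none fell. For mitosis 59 differences were positive and the median was 0.95, against -0.05 for all genes. Of 55 genes of DNA replication, 16 rose (29.1%), none fell, 54 were positive and the median was 0.80. Mcm3, a subunit of the replicative helicase, was at 0.997, 0.76 and 1.05 in MSU_51, MSU_54 and MSU_62b and at -0.65, -0.03, -0.34 and -0.39 in MSU_24, MSU_42, MSU_45 and MSU_59a. The groups did not overlap, and the difference was 1.29 ± 0.24 (adjusted p = 0.007). Mcm2, Mcm5 and Mcm10 rose by 1.46, 1.27 and 1.19, the licensing factors Cdc6 and Cdt1 by 1.09 and 0.97, and E2f1, a transcription factor of the G1/S transition, by 0.87. The clamp loader subunit Rfc5 rose by 1.05 ± 0.24 (adjusted p = 0.0176).

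Of the mitotic genes, Kif4, a chromosome motor, was at 0.15, -0.01 and 0.35 in the early tumors and at -1.51, -0.75, -0.65 and -1.08 in MSU_24, MSU_42, MSU_45 and MSU_59a (1.16 ± 0.25, adjusted p = 0.0136). Ccna2 (cyclin A2) and Top2a (topoisomerase IIα) rose by 1.22 and 1.24, and Kif23, a motor of cytokinesis, by 1.29. Mki67, the gene of the proliferation marker Ki-67, was at -0.24, -0.62 and -0.05 in the early tumors and at -1.64 to -1.40 in the LFD-HFD Late tumors, and its difference of 1.23 just missed the threshold (adjusted p = 0.0573). The groups did not overlap in 55 of the 60 mitotic and 46 of the 55 replication genes, against 43.3% of all tested genes. The counts of calls depended on single tumors. Without MSU_51 or MSU_62b 0 mitotic genes passed, without MSU_54 4 did, and without MSU_59a, MSU_45, MSU_24 or MSU_42 5, 6, 8 or 9 did, with medians of 0.86 to 1.06. For replication the counts were 1 without MSU_62b, 2 without MSU_51, 3 without MSU_54, 4 without MSU_24, 5 without MSU_45, 5 without MSU_59a and 9 without MSU_42, with medians of 0.69 to 0.89. When the spread was taken from the 7 tumors alone, 50 mitotic and 40 replication genes passed, as did 4584 of all 19613 genes.

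Stretches upstream of replication genes are shown because many of these genes carry sites for E2F factors. The motifs searched were TTTGGCGC and TTTCCCGC on both strands, overlaps allowed, in the 250 bases before each start site of the RefSeq promoter table (GRCm38.p6). Of the genes in that table, 1.51% held a match, as did 2.46% of the genes tested here, 8 of 46 matched replication genes (17.4%) and 4 of 51 matched mitotic genes (7.84%). The called replication genes with a match were Cdc6 and Mcm5, with the match in capitals.
Cdc6, chr11:98907973-98908060, plus strand: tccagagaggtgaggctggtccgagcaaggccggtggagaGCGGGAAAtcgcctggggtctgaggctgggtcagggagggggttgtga
Mcm5, chr8:75109320-75109407, plus strand: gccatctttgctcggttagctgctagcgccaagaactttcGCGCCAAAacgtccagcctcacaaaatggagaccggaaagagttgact
The matches end 131 and 142 bases before the start site. A match describes the letters only.

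Interferon-stimulated genes were lower in the early tumors. Of 35 tested, 16 fell (45.7%, against 3.66% of all genes), none rose, all 35 differences were negative and the median was -1.55. Oas2, which encodes an enzyme that senses double-stranded RNA and activates RNase L, was at 0.97, 1.29 and 1.45 in MSU_51, MSU_54 and MSU_62b and at 3.80, 3.16 and 3.04 in MSU_42, MSU_45 and MSU_59a, without MSU_24. Its difference was -2.10 ± 0.34 (adjusted p = 0.00472). Ifih1, Dhx58 and Ddx58 encode the cytoplasmic RNA sensors of the RIG-I family, and they fell by 2.25, 1.78 and 1.07 log2 units. Stat2, a transcription factor that carries the interferon signal to the nucleus, was at 0.39, 0.46 and 0.54 in the early tumors and at 2.20, 1.59 and 1.98 in MSU_42, MSU_45 and MSU_59a (-1.46 ± 0.25, adjusted p = 0.00604). Its partner Irf9 fell by 0.70. Of the effectors, Isg15, a ubiquitin-like modifier, was at 0.02, -0.04 and 0.15 in the early tumors and at 2.63, 2.60, 1.82 and 1.94 in MSU_24, MSU_42, MSU_45 and MSU_59a (-2.20, adjusted p = 0.0235). Usp18, which removes ISG15 and dampens the interferon receptor, fell by 2.74. Ifit1, Ifit3, Isg20, Mx1, Oasl1, Ifi44, Ifi27 and the immunity-related GTPase gene Igtp fell by 1.38 to 2.80. Irf7, Rsad2, Cxcl9 and Cxcl10 did not pass.

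The 3 early tumors were alike in these genes. With each gene taken as its distance from its mean over 24 tumors, the mean over the interferon genes was -0.91, -0.98 and -0.84 in MSU_51, MSU_54 and MSU_62b and 0.97, 0.78, 0.39 and 0.31 in MSU_24, MSU_42, MSU_45 and MSU_59a. It was -1.30 to -0.33 in the HFD Early tumors, and the late groups ranged from -0.79 to 1.11. MSU_54 lay below every LFD-HFD Late tumor in 34 of 35 genes, MSU_62b in 32 of 34 and MSU_51 in 29 of 33. No such share over all genes was computed for single tumors. The groups did not overlap in 30 of the 35 interferon genes, against 43.3% of all tested genes. T cell, B cell and macrophage markers, which could move with interferon, were measured beside them: 3 of 16 T cell genes were positive with a median of -0.56 and 1 called (Gzmb, granzyme B, fell by 1.13), 10 B and plasma cell genes had a median of -0.34 with none called, and 21 macrophage genes had a median of -0.11 with Msr1 alone called. The part of such cells in the interferon result was not tested. In bulk tumor RNA, fewer cells of a type and less RNA per cell cannot be told apart. The number of interferon genes called lower was 4 without MSU_51, 5 without MSU_54, 7 without MSU_62b, 9 without MSU_42, 10 without MSU_24, 10 without MSU_45 and 11 without MSU_59a, and the median stayed between -1.59 and -1.46. From the 7 tumors alone, 28 passed, as did 4584 of all 19613 genes.

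**Figure D3:**
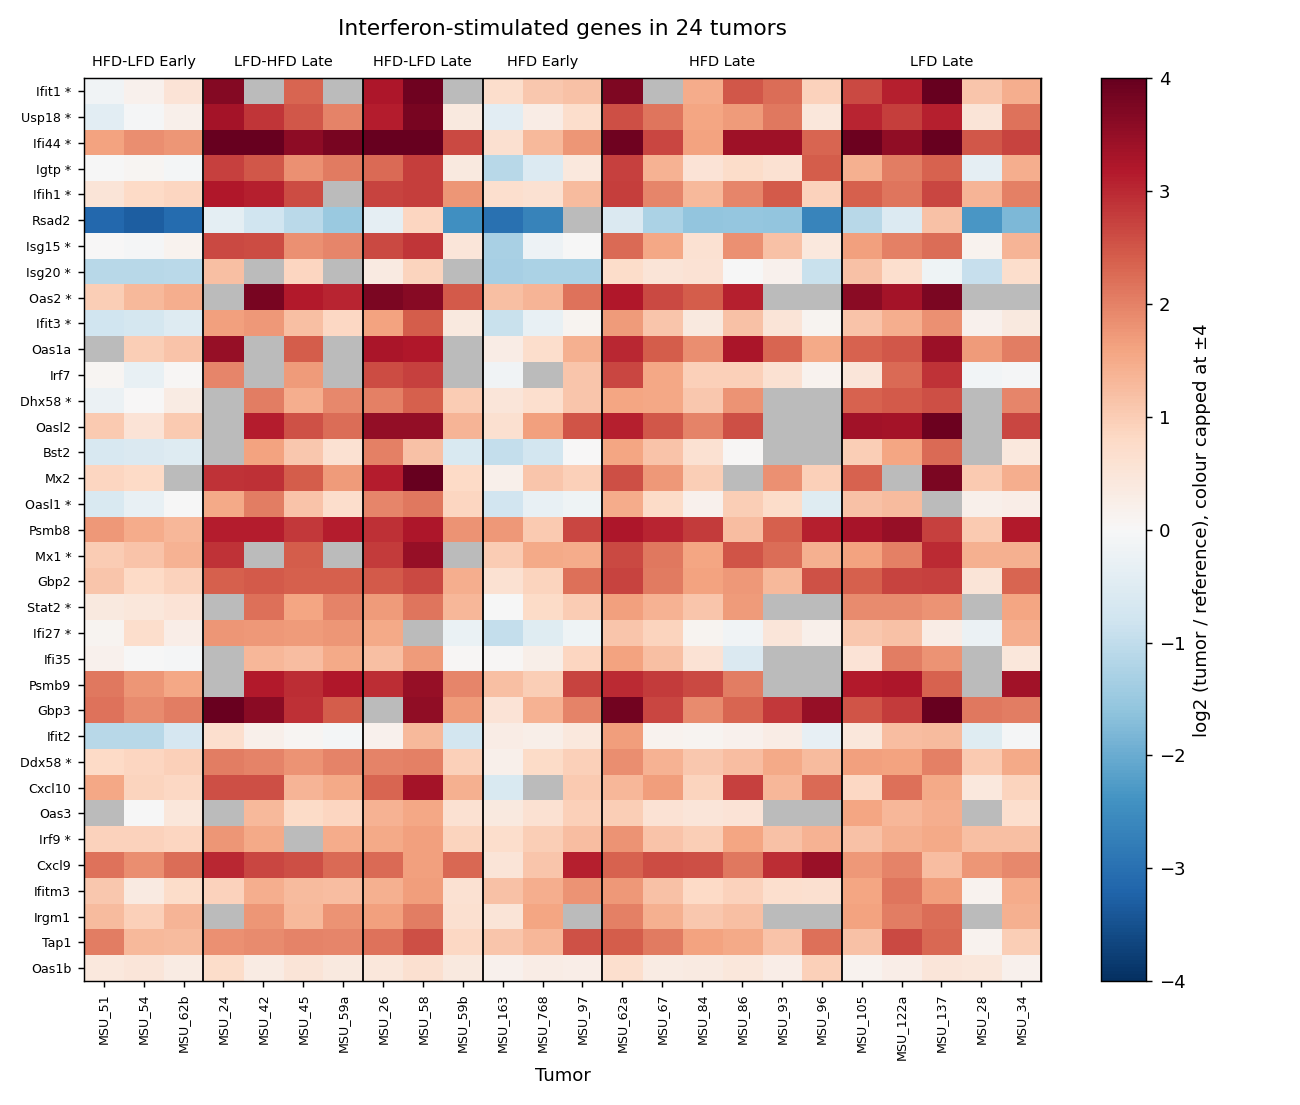
Log2 ratio of tumor over reference (color, capped at 4 in both directions, grey where not measured) of the 35 tested interferon-stimulated genes (rows, ordered by the difference, with a star where called) in all 24 tumors (columns, by group). MSU_51, MSU_54 and MSU_62b lie below every LFD-HFD Late tumor in 29, 34 and 32 of their measured genes. The groups do not overlap in 30 of the 35, against 43.3% of all tested genes.

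Stretches upstream of interferon genes are shown because these genes fell together and share a known regulatory motif, the interferon-stimulated response element bound by STAT2 and IRF9. The core searched was GAAA, any 2 bases and GAAA again, on both strands, overlaps allowed, in the same 250 bases. It was in 3.46% of all genes of the table and 3.3% of those tested here, in 13 of 28 matched interferon genes (46.4%) and in 5 of 11 matched called ones. These 5 were Ifit1, Ifit3, Igtp, Isg15 and Stat2, of which 4 are printed, with matches in capitals.
Isg15, chr4:156200847-156200936, minus strand: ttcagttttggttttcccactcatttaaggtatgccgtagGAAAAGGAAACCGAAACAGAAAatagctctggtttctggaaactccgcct
Ifit1, chr19:34640745-34640834, plus strand: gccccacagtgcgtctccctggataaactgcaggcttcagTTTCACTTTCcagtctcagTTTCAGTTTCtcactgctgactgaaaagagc
Ifit3, chr19:34583333-34583422, plus strand: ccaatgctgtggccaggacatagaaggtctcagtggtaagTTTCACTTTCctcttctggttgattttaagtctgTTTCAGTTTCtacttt
Igtp, chr11:58199482-58199555, plus strand: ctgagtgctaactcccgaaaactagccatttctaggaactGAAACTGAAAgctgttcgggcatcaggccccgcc
Absence of the core in this window says only that these letters are not there.

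Genes of the cornified envelope, the protein shell of squamous cells, were higher in the early tumors by size but seldom passed the test. Of 51 tested, 47 differences were positive and the median was 2.21, and the groups did not overlap for 44, against 43.3% of all tested genes, yet only Serpinb11 and Sprr1a were called (3.92%, against 6.36% of all genes). Sprr1a, a cross-linked envelope precursor, was at 2.42, 1.75 and 1.67 in MSU_51, MSU_54 and MSU_62b and at -3.02, -3.27, -2.30 and -2.20 in MSU_24, MSU_42, MSU_45 and MSU_59a (4.65 ± 1.35, adjusted p = 0.0451). Krt6a, a keratin of activated keratinocytes, was at 2.39, 1.47 and 1.82 in the early tumors and at -0.73 and -1.82 in MSU_42 and MSU_45 (3.17 ± 1.04, adjusted p = 0.0782). Flg, the gene of filaggrin, was at -1.08, -2.40 and -1.20 in the early tumors and at -6.81 to -5.41 in the LFD-HFD Late tumors that measured it, and did not pass (4.42, adjusted p = 0.261). Tumors of the other groups, which enter the estimate of the error, varied widely in these genes. The list mean, on the scale used for interferon genes, was 0.70 to 1.56 in the early and -1.43 to -1.12 in the LFD-HFD Late tumors, but -1.01 to 2.87 in HFD-LFD Late, -0.82 to 1.53 in HFD Early, -1.39 to 4.06 in HFD Late and -1.38 to 1.54 in LFD Late tumors. With the spread of the 7 tumors alone, 39 of the 51 passed, as did 4584 of all 19613 genes. With all groups in the fit, 1 was called without MSU_24 and 0 without each of the other 6 tumors.

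Hair keratins and hair follicle genes had a median of 2.77 over 50 tested, with 5 called higher and 1 lower (12%, against 6.36% of all genes). The genes called higher were Krtap6-1, Krt73 and Krt72, keratins of the inner root sheath, and Dlx3 and Lef1, transcription factors of the hair follicle. Krt72 was at 2.04 and 2.24 in MSU_51 and MSU_54, at -0.85 in MSU_62b and at -2.34 to -1.51 in the LFD-HFD Late tumors (3.13 ± 0.81, adjusted p = 0.0286). Dlx3 was alike in the 3 early tumors, at 0.62, 0.48 and 0.28. The early tumors were not uniform: the list mean was 2.32 in MSU_51, 2.78 in MSU_54 and -0.32 in MSU_62b, and -1.29 to -0.999 in the LFD-HFD Late tumors. Tumors of the other groups reached similar levels. Their list means were -0.53 to 2.81 in HFD-LFD Late and -1.42 to 1.85 in HFD Early tumors. HFD Late tumors ranged from -1.22 to 2.31 and LFD Late tumors from -1.42 to 1.04. MSU_62b lay above all LFD-HFD Late tumors in 33 of its 50 genes, against 45 of 49 for MSU_51 and 42 of 45 for MSU_54. The groups did not overlap in 34 of the 50 hair genes, against 43.3% of all tested genes. For cornified envelope genes MSU_62b was at 1.31, between MSU_51 at 1.56 and MSU_54 at 0.70. The number called higher was 6 without MSU_62b, 3 without MSU_24, 2 without MSU_45, 1 without MSU_42, and 0 without MSU_51, MSU_54 or MSU_59a.

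Calls among luminal and hormone-response genes ran downward. Of 32 tested, 5 fell (15.6%, against 3.66% of all genes), none rose, 4 were positive and the median was -1.45. Gata3, the luminal lineage factor, was at 0.54, 1.08 and 0.80 in MSU_51, MSU_54 and MSU_62b and at 3.31, 3.58 and 3.56 in MSU_42, MSU_45 and MSU_59a (-2.68 ± 0.52, adjusted p = 0.0109). Gata3 is also the gene called lower in the hair list, since it acts in the inner root sheath as well. Esr1, the estrogen receptor α gene, was at -0.24, -0.09 and -0.01 in the early tumors and at 2.77, 1.20, 2.41 and 2.90 in MSU_24, MSU_42, MSU_45 and MSU_59a (-2.43 ± 0.65, adjusted p = 0.0315). It was not well above background in any early tumor and was in all 4 LFD-HFD Late tumors, so its level in the early tumors is not resolved. Stat5b, which carries the prolactin signal, fell by 1.40 ± 0.32 (adjusted p = 0.017). With Prlr and Erbb4, these were the 5 called members. Foxa1, a pioneer factor of estrogen receptor binding, was at -1.56, -0.84 and -2.06 in the early tumors and at 3.53 to 4.70 in the LFD-HFD Late tumors, and missed the threshold (-5.66 ± 1.79, adjusted p = 0.0605). Krt8, a luminal keratin, was at -3.18 (adjusted p = 0.163) and Elf5 at -1.73 (adjusted p = 0.19). The number called was 0 without MSU_51, 1 without MSU_54, 2 without MSU_62b, 3 without each of MSU_24, MSU_45 and MSU_59a, and 4 without MSU_42. With the spread of the 7 tumors alone it was 20, beside 4584 of all 19613 genes.

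Milk and secretory genes had a median of -1.94 over 28 tested, with 4 called lower (14.3%, against 3.66% of all genes), none higher and 3 positive. Aqp5, a water channel of glandular epithelium, was at -0.45, 0.50 and 0.01 in the early tumors and at 3.60, 3.68 and 3.85 in MSU_42, MSU_45 and MSU_59a (-3.69 ± 0.70, adjusted p = 0.00939). Mfge8, a milk fat globule protein gene, was at -0.05, 0.27 and 0.34 in the early tumors and at 4.45 and 4.40 in MSU_42 and MSU_45, the LFD-HFD Late tumors that measured it (-4.24 ± 0.91, adjusted p = 0.0177). Muc1, a mucin of the luminal surface, fell by 1.72, and Cck is described above. Milk proteins proper split the LFD-HFD Late tumors. Csn2, the β-casein gene, was at 7.53 in MSU_45 and -1.003 in MSU_59a, and at 0.97 to 1.53 in the early tumors (-2.01 ± 2.88, adjusted p = 0.739). Wap, whey acidic protein, was at 4.58 in MSU_42, 4.09 in MSU_45 and -1.37 in MSU_59a and at -1.36 to -0.83 in the early tumors. The list mean was 1.90 in MSU_42 and 1.63 in MSU_45, against -0.14 in MSU_24 and -0.08 in MSU_59a, and -1.21 to -1.09 in the early tumors. The number called was 0 without MSU_51, 1 without each of MSU_54, MSU_42 and MSU_45, 2 without MSU_62b or MSU_59a, and 3 without MSU_24.

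Basal and myoepithelial genes moved both ways, with 1 of 25 called higher, 2 lower (12% called, against 6.36% of all genes) and a median of -0.27. The number called was 2 without MSU_24 and 0 without MSU_42, MSU_45, MSU_51, MSU_54, MSU_59a or MSU_62b. Cdh3, P-cadherin of basal cells, was at 2.22, 1.83 and 1.83 in the early tumors and at -0.18 to 0.31 in the LFD-HFD Late tumors (1.91 ± 0.53, adjusted p = 0.0377). The falls were the contractile genes Myh11 and Tagln, and Acta2, smooth muscle actin, stood at -2.60 (adjusted p = 0.0526). Tagln was measured in 2 tumors of each group. The basal keratins Krt5 and Krt14 were at 0.50 (adjusted p = 0.814) and 1.74 (adjusted p = 0.372), and Trp63, the p63 gene, at -0.40 (adjusted p = 0.361).

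**Figure D4:**
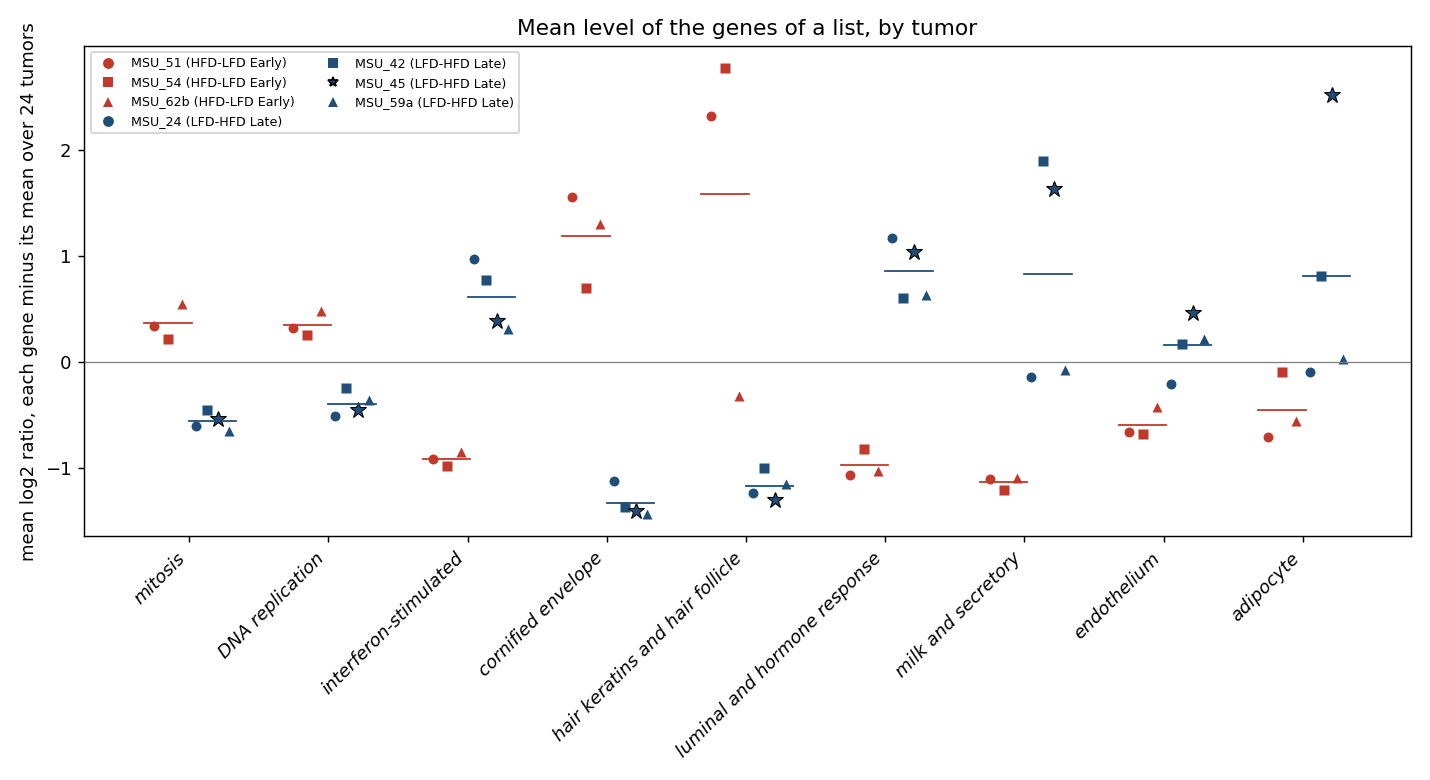
Mean over the tested genes of a list of the log2 ratio minus each gene's mean over 24 tumors (vertical axis), one point per tumor for 9 lists (horizontal axis), red for HFD-LFD Early and blue for LFD-HFD Late, with MSU_45 as a star and each group's mean as a line. Mitosis, DNA replication and cornified envelope genes lie higher and interferon, luminal, milk and endothelial genes lower in all 3 early tumors, MSU_62b falls away from the other early tumors in the hair list, and MSU_45 at 2.52 stands above all others in the adipocyte list.

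Fatty acid oxidation was looked at as the pathway that burns dietary fat. Of 32 genes of this pathway and PPAR targets, 4 fell (12.5%, against 3.66% of all genes) and none rose. Of the 32, 8 were positive and the median was -0.43. Acadvl, the very long chain acyl-CoA dehydrogenase, was at -2.53, -2.18 and -2.25 in MSU_51, MSU_54 and MSU_62b and at -1.59, -1.59, -1.29 and -1.05 in MSU_24, MSU_42, MSU_45 and MSU_59a (-0.94 ± 0.18, adjusted p = 0.007). Decr1, a reductase for unsaturated fatty acids, Cpt2, of mitochondrial import, and Acadm, the medium chain dehydrogenase, fell by 1.56, 1.03 and 0.56. Cpt2 rests on MSU_24 and MSU_45 in its LFD-HFD Late group, and Cpt2 and Acadm turned sign when the dimmed rows were kept (1.62 and 0.47), when 1 gene of the list was called. Without MSU_51 and within slide 4, 0 were called, and 2 were without MSU_45, MSU_54 or MSU_62b. Of 23 genes of fatty acid synthesis, Srebf1, the master regulator, fell by 0.95 (adjusted p = 0.0181), a share of 4.35%, against 6.36% of all genes. Of 26 cholesterol synthesis genes none was called, with 23 positive and a median of 0.43. Ahr, the aryl hydrocarbon receptor that senses DMBA, was at 2.46, 2.80 and 2.55 in the early tumors and at 0.93, 0.92 and 1.67 in MSU_42, MSU_45 and MSU_59a (1.44 ± 0.28, adjusted p = 0.0109). Its target Nqo1 fell by 1.36 (adjusted p = 0.0485), and the other 10 genes of that battery did not pass (16.7% called, against 6.36% of all genes).

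Of 39 genes of BMP and TGF-beta signaling, 2 rose and 4 fell (15.4% called, against 6.36% of all genes). The number called was 0 without MSU_51, 1 without MSU_54, 2 without MSU_62b, 3 without MSU_24 or MSU_45 and 4 without MSU_42 or MSU_59a. Tgfb2 rose by 2.11 ± 0.44 (adjusted p = 0.0118) with Bmp7, while its relative Tgfb3 fell by 1.60 (adjusted p = 0.0423). Tgfb2 was at 0.84, 0.95 and -0.18 in the early tumors and at -2.07 to -1.10 in the LFD-HFD Late tumors. The coreceptor Tgfbr3, the endothelial receptor Acvrl1 and the ligand Bmp3 fell by 1.62, 1.11 and 1.65. Of 17 angiogenic factors, 2 fell (11.8%, against 3.66% of all genes), none rose and the median was 0.04. Angpt1, a ligand that stabilizes vessels, and Epas1, the hypoxia-inducible factor 2α gene, fell by 2.21 and 2.08. The number of angiogenic factors called was 0 without MSU_42, MSU_45, MSU_51, MSU_54 or MSU_62b, 1 without MSU_59a and 2 without MSU_24. The 3 probes of Epas1 ranged from -2.08 to -0.29. Of 32 genes of p53 and its targets, Btg2, an antiproliferative gene, fell by 0.84 (adjusted p = 0.028), and Cdkn1a was at 1.47 (adjusted p = 0.078). That call is 3.12% of the list, no more than the 3.66% of all genes called lower. Of 12 genes of the Myc network, Mxd3 alone was called (8.33%, against 6.36% of all genes) and rose by 0.87 (adjusted p = 0.0439). Mycn, a neural and epithelial progenitor MYC gene, was at 1.24, 1.44 and 2.14 in the early tumors and at -3.14 and -3.21 in MSU_42 and MSU_59a, and just missed the threshold (4.78 ± 1.40, adjusted p = 0.0537). Of 25 genes of epithelial-mesenchymal transition and claudins, none was called.

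Markers of other cell types were measured in the same tumors. All 20 endothelial genes were negative, with a median of -0.61. Called lower were 3 (15%, against 3.66% of all genes), namely Flt1, Ptprb and Sox17. The number called was 0 without MSU_42, MSU_45, MSU_51 or MSU_54, 1 without MSU_59a or MSU_62b and 3 without MSU_24. After median centring of each array 0 endothelial genes were called. The defining Pecam1 and Cdh5 were at -0.31 (adjusted p = 0.561) and -0.10 (adjusted p = 0.925). Flt1, a VEGF receptor, was at -1.85, -1.61 and -1.44 in the early tumors and at -0.54 to 0.02 in the LFD-HFD Late tumors. Of 21 macrophage genes, the scavenger receptor gene Msr1 rose by 1.34 ± 0.29 (adjusted p = 0.0133), from -0.29 to 0.24 in the LFD-HFD Late tumors to 1.15, 0.94 and 1.81 in MSU_51, MSU_54 and MSU_62b. The macrophage genes Adgre1 and Cd68 were at -0.11 (adjusted p = 0.874) and 0.08 (adjusted p = 0.918). Of 12 neutrophil genes S100a9, which keratinocytes express too, was called (8.33%, against 6.36% of all genes), and S100a8 was at 5.58 (adjusted p = 0.0526). The defining Elane and Cxcr2 were at -0.51 and 0.77 without passing. The neutrophil list mean was 0.02 to 0.64 in the early and -0.82 to -0.42 in the LFD-HFD Late tumors. Which cells carried S100a9 was not tested. Of 17 fibroblast genes, Postn fell by 3.07 (adjusted p = 0.0453) with 2 LFD-HFD Late tumors measured. No mast cell gene (6), skeletal muscle gene (19) or adipocyte gene (15) was called. Adipocyte genes were all negative with a median of -1.19, and MSU_45 stood apart: Plin1, a lipid droplet gene, was at 0.22 in MSU_45 and at -3.35 to -2.16 in the other LFD-HFD Late tumors. Calls made up 4.76% of the macrophage, 6.25% of the T cell and 5.88% of the fibroblast list, against 6.36% of all genes. What these cells contributed to the other differences was not tested.

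Slide and group overlap, since all early tumors were on slide 4 with MSU_45. Taken within that slide, as the 3 early tumors against MSU_45 with the spread of the other tumors lent to it, 125 genes passed, 39 higher and 86 lower. Of 1233 called genes that could be tested this way, 77 passed with the same sign. These genes were called with MSU_45 in the LFD-HFD Late group, so their sign within the slide is not independent of the call. Within the slide, Neto1 (4.64, adjusted p = 0.00381), Tgfa (2.49, adjusted p = 0.0352), Wif1 (4.54, adjusted p = 0.0352), Fzd1 (1.97, adjusted p = 0.0395), Acvrl1 (-1.56, adjusted p = 0.0466), Ntf3 (3.35, adjusted p = 0.0487), Ror2 (2.25, adjusted p = 0.0487) and Oas2 (-1.92, adjusted p = 0.0496) passed, 8 of the 78 called genes named by the rule. List medians within the slide were -1.40 for interferon, 0.95 for mitosis, 0.81 for DNA replication, 2.21 for cornified envelope and -1.84 for luminal genes, with 1 interferon gene and none of the others called. Adipocyte genes had a within-slide median of -3.65 with 4 of 14 called lower, so values against MSU_45 alone carry its adipocyte signal. With slide as a random block over all tumors (correlation 0.134), 1101 genes were called. Named calls missed there by limma were Sprr1a (adjusted p = 0.0568), Krtap6-1 (0.0644), Krtap22-2 (0.0567), Nqo1 (0.0577), Tgfb3 (0.051) and Mxd3 (0.0527). The endothelial gene Vwf (0.0468) and the adipocyte gene Adrb3 (0.0484), not called otherwise, passed.

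A comparison whose groups share no array with these groups is HFD Early against LFD Late, where HFD and LFD were each kept on throughout. It called 935 genes (4.77%), but 27 without MSU_768, 217 without MSU_34, 230 without MSU_105, 293 without MSU_97, 494 without MSU_163, 1405 without MSU_28, 2444 without MSU_137, 67 with slide as a random block and 285 with dimmed rows kept. The sign of its difference matched in 1207 of the 1247 genes called above (96.8%), in 94.9% of the rises and 98.2% of the falls, and in 72.1% of all tested genes. Called in both were 293 genes, all with the same sign. Oas2 was at -1.998 (adjusted p = 0.00843), Aqp5 at -3.49 (adjusted p = 0.0111), Ntf3 at 2.70 (adjusted p = 0.0119), Lgr6 at 3.03 (adjusted p = 0.0342) and Gata3 at -2.28 (adjusted p = 0.0189) in that comparison. Medians of the lists there were -1.26 for interferon, 0.82 for mitosis, 0.42 for DNA replication, 0.92 for cornified envelope and -0.81 for luminal genes. S100a9 and Lce3a, the largest rises, were at 0.84 (adjusted p = 0.784) and 2.04 (adjusted p = 0.477). Both comparisons set Early against Late tumors and HFD against LFD in peripuberty, so latency and peripubertal diet are common to them and cannot be told apart. The HFD Early tumors were all on slide 2 and the LFD Late tumors on slides 1 and 6, so slide differs between them too. These tumors also entered the estimate of the error behind the 1247 calls.

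**Figure D5:**
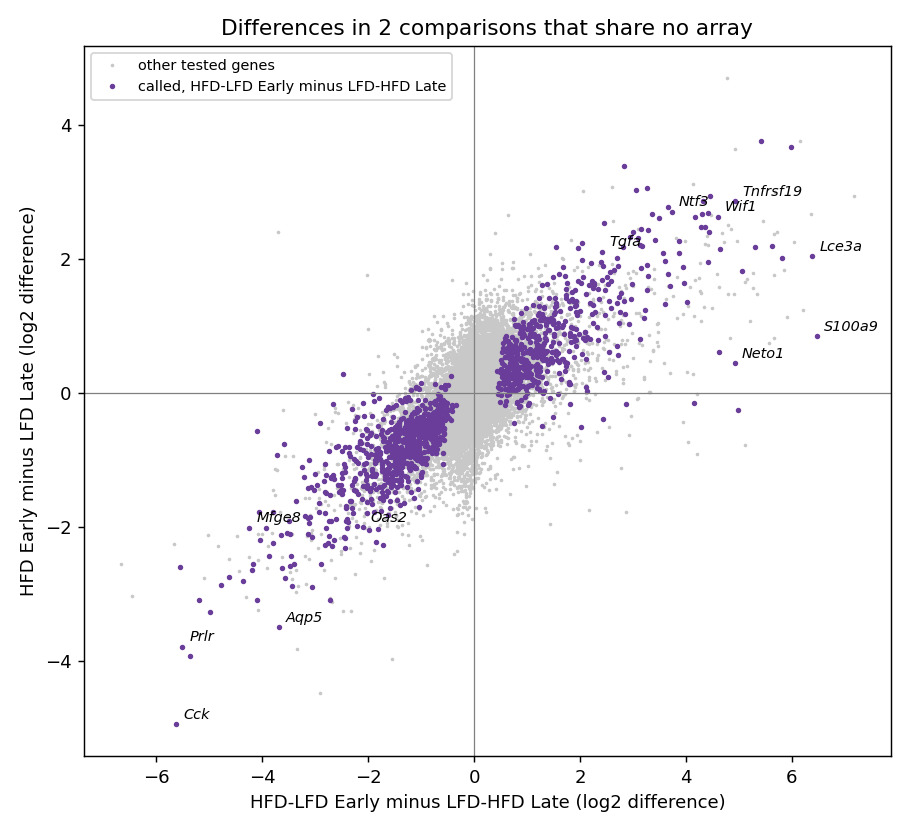
Log2 difference of HFD-LFD Early minus LFD-HFD Late tumors (horizontal axis) against that of HFD Early minus LFD Late tumors (vertical axis) for each tested gene, purple where called in the former. Of the 1247 purple points, 1207 have the same sign on both axes, and Neto1 and S100a9 lie near 0 on the vertical axis, at 0.44 and 0.84.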

How the data were processed

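The arrays were Agilent whole mouse genome arrays with both dyes, 1 tumor per array. The authors deposited the scanner output: mean and background intensity of each spot in both channels, not normalized, and the scanner software's log10 ratio of cyanine 5 over cyanine 3, background-subtracted and dye-normalized per the file headers. The submitters' processing notes name Agilent Feature Extraction 8.5.1.1. Probe positions are those of the array design (mm9).

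The intensities were processed with limma 3.58.1 in R 4.3.3: normexp (offset 50) fitted on spots without outlier flags, dimmed cyanine 5 rows set missing, loess within arrays and spots of a probe averaged. Probes were kept where both dyes exceeded 10 after background subtraction on 80% of the arrays that measured them, which left 27292 of 39429 probes. The brightest probe stood for each gene, named through its accession or symbol in the reference table where it matched, and a gene needed 2 measured arrays in each group, which left 19613 genes. Of 37 named genes with more than 1 probe, 1 had probes of opposite sign. A model of 6 group means over all 24 arrays with eBayes and Benjamini-Hochberg adjustment over all genes gave each comparison, called at an adjusted p under 0.05. The number of arrays limits the precision. The steps were tested on simulated data.

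Named by rule were the called genes with the widest difference (10 in each direction) that had no overlap and at least 3 measured LFD-HFD Late arrays, the qRT-PCR genes, up to 4 members of each of 33 lists (924 entries) with the smallest p or a defining role, and members behind counts of 5 or fewer. Other list members named here were chosen after their values were seen. The comparison, its members and the lists were chosen with earlier results of these data known. Alternatives changed the masking, background, normalization, filter, probe choice, tumors in the fit, slide and session terms, and left out each array in turn.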

Additional observations from a re-analysis of the deposited data

Results flagged for a closer look

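Among 87 named genes measured in all 4 LFD-HFD Late tumors, 8 had a tumor that stood far from the other 3 against their range (Dixon's ratio of gap to range past its 95% limit, as chance gives in about 1 in 20 groups), and of 33 list means 0 did. Lce3a was at -6.16 in MSU_59a and at -5.68 to -5.59 in the others. In MSU_45, Erbb4 was at 0.13 against -0.64 to -0.62, Fzd1 at -0.80 against -0.99 to -0.97, the B cell gene Cd22 at 0.43 against 0.69 to 0.74, and the mast cell gene Cpa3 at -4.92 against -5.83 to -5.68. In MSU_24, Ror2 was at -2.23 against -1.19 to -1.002, Flt1 at -0.54 against -0.04 to 0.02, and the matrix protease gene Mmp2 at -1.67 against -0.75 to -0.57. For Lce3a, Fzd1, Ror2 and Flt1 the tumor that stood apart still lay on the LFD-HFD Late side of all early tumors. What sets these tumors apart was not tested.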

How the results depend on the processing

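Against 1247 calls in all, 650 genes (563 of them among the 1247) were called after median centring, 757 (545) with the tumor channel alone, 4584 (1231) with the 7 arrays alone, 5825 with array weights, 125 with slide as a fixed block, 616 with scan session as a fixed block, 137 without slides 6 and 7, 4493 without adjustment, and 144 (without MSU_51) to 819 (without MSU_24) with an array left out. The other settings gave 847 (dimmed rows kept, with 41 signs of the 1247 turned) to 1824 (imputed values), and 1229 with row bands centred, an alternative chosen after seeing the data. HFD-LFD Early against HFD-LFD Late gave 53 calls with dimmed rows kept, 27 with slide as a random block and 18 to 215 with an array left out. HFD-LFD Late against LFD-HFD Late gave 1 with imputed values and 0 to 3 with an array left out. HFD Early against LFD Late gave 285, 67 and 27 (without MSU_768) to 2444 (without MSU_137) under the same 3 changes. Of 768 list entries tested, 109 were called, and 63 after median centring, 373 with the 7 arrays alone, 12 with slide fixed and 11 to 65 with an array left out. These signs turned: Ccl1 to -0.061 (median centring) and -0.11 (tumor channel), Ccl17 to 0.005 (slide fixed) and 0.37 (session), Cpt2 to 1.62, Acadm to 0.47 and Tnni2 to 0.61 (dimmed rows kept), Cxcr2 to -0.006, Mylpf to 0.31, Fcrla to 0.045, Cpa3 to 0.001 and Tpsab1 to 0.33 (tumor channel), Tpsab1 to 0.064 and Mcpt4 to -0.057 (scanner ratios). Mcpt4 was at -0.032 with slide as a random block, -0.65 with it fixed or without slides 6 and 7, -0.36 with session, and -0.032 to 0.41 with an array left out, and Trp53 at -0.042 to 0.37. The cause was not tested. Of 78 named calls, 11 held in all 7 fits with an array left out: Neto1, Ntf3, Tgfa, Wif1, Oas2, Ifih1, Dhx58, Stat2, Fzd1, Mcm3 and Ahr. No paired analysis was possible because the labels give no replicate numbers.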
